A study of Mus musculus with 18 samples.

Results

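The 40 genes described here act in the G2 phase of the cell cycle and in mitosis, and they were listed by their known function, with earlier results of these data known. Each of the 40 had a row among the 11243 protein-coding genes counted, and no member was lost to a filter, the lowest member count in any library being 344. The cells were RAW264.7, macrophages of the mouse that a leukemia virus transformed into a line and that divide continuously in culture. Control cells received only the vehicle DMSO, and how long it was present is not given in the labels of these libraries. LPS cells were exposed to 500 ng/mL lipopolysaccharide (LPS), a bacterial cell wall component, for 6 h. In the combined group, called LPS with torin1 here, 100 nM torin1, which inhibits the mTOR kinase, was added 15 min before the same LPS. All groups are cultures of 1 line that differ, as far as the labels say, in treatment alone, and torin1 without LPS was not analysed here. Each treatment was made in 3 independent experiments, and each of the 9 lysates was split into 2 libraries, one of all its mRNA (total mRNA) and one of the mRNAs that carry many ribosomes, pooled from the heavy polysomes.

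Cells enter mitosis when Cdk1 bound to cyclin B is activated by Cdc25 phosphatases. Aurora and Polo kinases, kinesins and spindle proteins then build the spindle, kinetochores tie the chromosomes to it, and the spindle checkpoint holds back the anaphase-promoting complex until every chromosome is attached. Afterwards Cdc20 directs that complex against securin and cyclin B, and the passenger complex, the central spindle and a contractile ring divide the cell. These genes are known to be transcribed together late in the cycle by B-Myb, FoxM1 and the MuvB complex, and to be shut off in resting cells by the DREAM complex, through promoter elements called the cell cycle genes homology region (CHR) and CCAAT boxes. LPS is known to slow the division of macrophages.

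The promoters of the genes are shown before the values. RefSeq promoters of build GRCm38.p6, from 250 bases before to 50 bases after the transcription start, were at hand for 33 of the 40 genes, with 35 promoters in all. The 7 others were Ccna2, Cdc25c, Tpx2, Kif20a, Aurkb, Incenp and Foxm1. CHR motifs were searched as TTTGAA or TTCGAA and CCAAT boxes as CCAAT, both on either strand, and the 2 kinds can share at most 1 base. A CHR motif stood in 26 of the 33 genes (78.8%) and in 1425 of the 8568 genes of the count table with a promoter (16.6%), and it stood in 19.2% of all 32851 promoters of the reference. A CCAAT box was found in 75.8% of the 33 genes against 43.5% of the 8568, and both motifs in 69.7% against 6.92%. Between 100 bases before and 50 bases after the start, 72.7% of the 33 genes and 6.71% of the 8568 held a CHR motif. Windows of 30 bases from promoters of members with values below are printed 5′ to 3′ on the strand of the gene, with 1 CHR match in capitals. Only windows that end before the start were printed, and some promoters held further matches. Cdk1 had another at −15 from the start, Mki67 at −116, and Top2a at −179, −140 and −23.
Cdk1, the kinase of mitotic entry, chr10:69352966-69352995, minus strand, 71 bases before the start: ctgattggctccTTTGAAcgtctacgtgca
Mki67, the gene of the Ki-67 antigen, chr7:135716460-135716489, minus strand, 98 bases before the start: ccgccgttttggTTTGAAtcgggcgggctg
Top2a, topoisomerase II alpha, chr11:99024292-99024321, minus strand, 120 bases before the start: ggcggtcttttgTTCGAAtaaaagacgatc
Kif11, the kinesin that pushes the spindle poles apart, chr19:37376351-37376380, plus strand, 19 bases before the start: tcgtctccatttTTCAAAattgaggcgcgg
Ect2, the activator of RhoA in cytokinesis, chr3:27153975-27154004, minus strand, 114 bases before the start of one of its promoters: ccgtttaccggaTTTGAAacacactcacaa
Cdc20, the activator of the anaphase-promoting complex, chr4:118437344-118437373, minus strand, 18 bases before the start: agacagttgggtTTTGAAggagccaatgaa
In Kif11 the capitals show TTCAAA, which is TTTGAA read on the other strand. Neither motif was found in these windows of Nusap1, Nuf2, Mad2l1, Birc5 and Pttg1, and the matches describe letters, not binding.

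Libraries of total mRNA held between 27800983 and 38175777 counted reads, and those of polysome-associated mRNA between 34930909 and 47725557. Of 8 macrophage markers 7 were in the table, none of the T cell, B cell, fibroblast and epithelial markers were, and of 4 endothelial markers Cdh5 was present at 0.0658 to 1.43 CPM, which are counts scaled to a common library size. The authors removed genes with 0 counts in any library, so that absence from the table gives no level. LPS raised Il1b by 9.85, Ptgs2 by 6.38 and Tnf by 3.21 on the log2 scale in total mRNA, and in edgeR's test their adjusted p-values were 2.12e-06, 4.73e-07 and 3.15e-06.

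The first question was how 6 h of LPS changed the levels of the mitotic genes. In total mRNA, LPS lowered 39 of the 40, across every role from mitotic entry to cytokinesis, and raised none. Their median log2 fold change was −0.81, whereas the median of all genes was −0.02. The 40 genes together took 0.7555% to 0.8637% of the reads in control libraries and 0.3% to 0.3955% in LPS libraries. A change was called at an FDR of 0.25 in edgeR's quasi-likelihood test, the threshold of the study, at which 34.3% of all 11243 genes were lower and 32.2% higher. The p-values, adjusted by Benjamini-Hochberg over all genes, measure the spread between the 3 independent experiments. All 3 LPS libraries lay below all 3 control libraries for 38 members, an arrangement found in 28.3% of all genes, and 39 members were lower with LPS in each of the 3 experiments. The members' median was −0.62 in experiment 1, −0.99 in experiment 2 and −0.79 in experiment 3, a mean of −0.80 ± 0.18 (SD, n = 3). In these bulk libraries, fewer cells in G2 and mitosis and less mRNA in each such cell cannot be told apart.

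**Figure D1:**
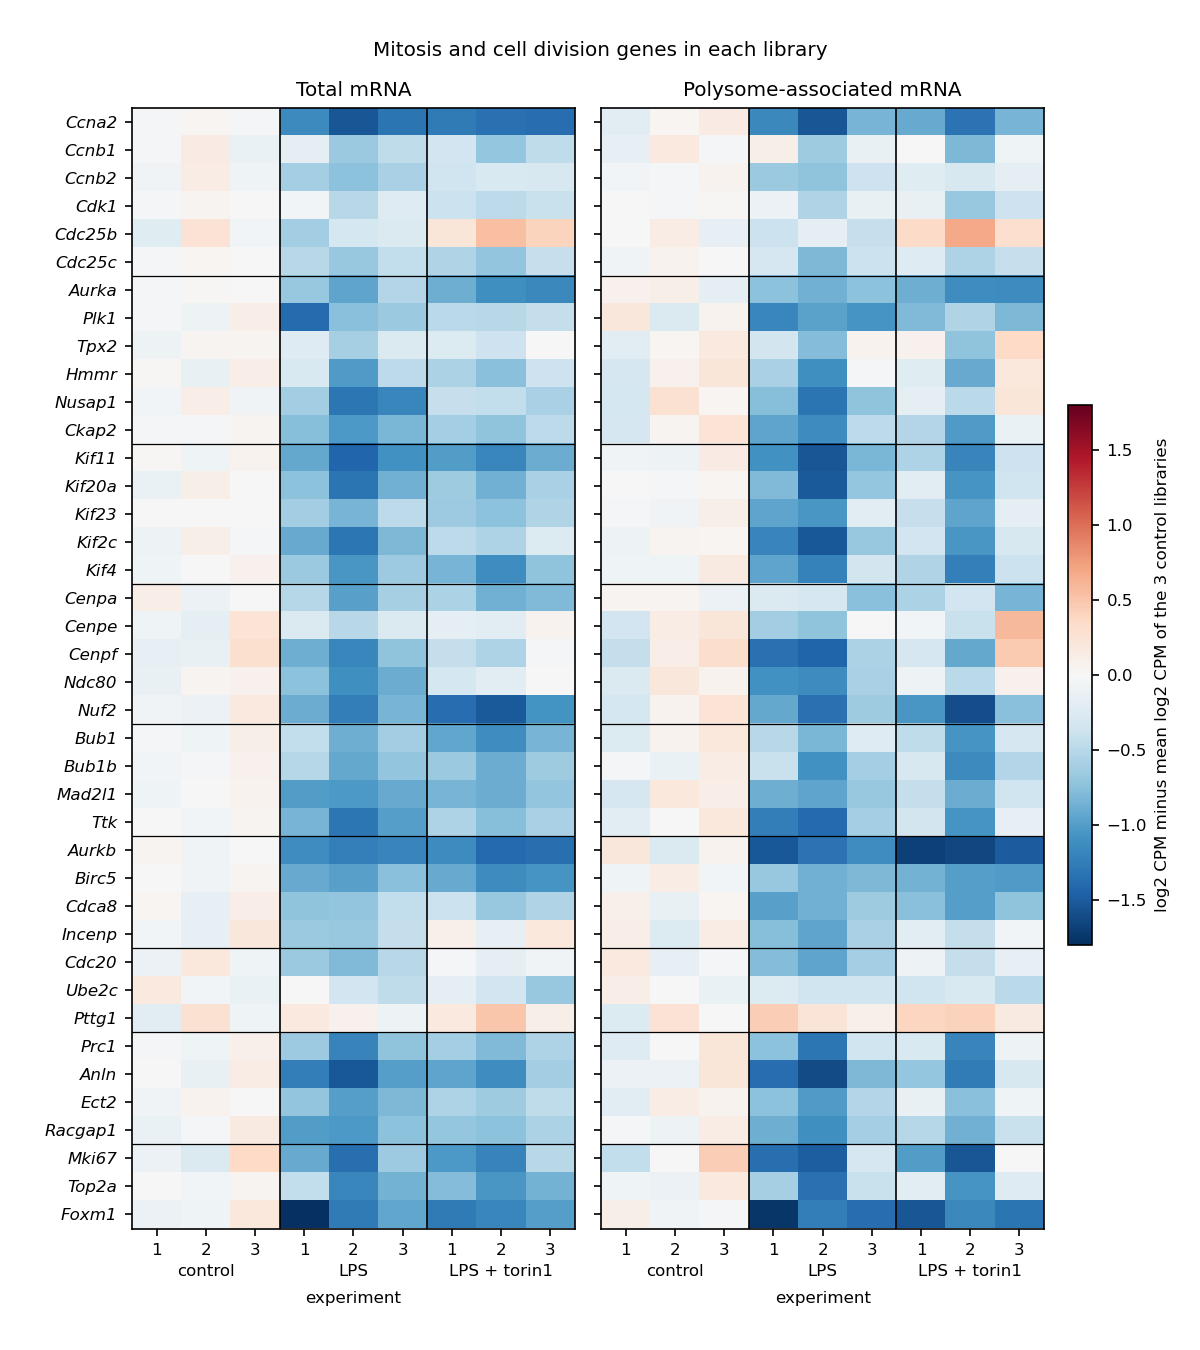
Level of each of the 40 genes (rows, with lines between the 9 roles) in every library (columns, by treatment and experiment), as log2 CPM minus the mean log2 CPM of the 3 control libraries of the same RNA type. Blue is below and red above the control mean, and the LPS columns of total mRNA are blue for nearly every gene, Pttg1 being the exception with the TMM scaling used here. The LPS with torin1 columns are paler than the LPS columns for Ndc80 and Incenp and red for Cdc25b.

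Among the cyclins, Cdk1 and its phosphatases, all 6 genes fell, cyclin A2 most of them. Ccna2, whose product drives S phase and entry into mitosis, was at 270.0, 280.2 and 271 normalized CPM (with TMM scaling) in the control libraries of experiments 1 to 3 and at 123.5, 94.2 and 109 with LPS. That was a log2 fold change of −1.33 ± 0.11 (SE), among the strongest falls of the 40, with an adjusted p of 8.64e-06 in edgeR's test. Ccnb1, the cyclin that activates Cdk1 at mitotic entry, stood at 157, 176 and 146 in control and at 141, 100.4 and 116 with LPS. The groups did not overlap, but the LPS value of experiment 1 came close to the lowest control. Cdk1 itself was at 159, 169 and 163 in control and 158, 116 and 139 with LPS, −0.25 ± 0.12 on the log2 scale (edgeR's adjusted p = 0.103). Nearly all of the Cdk1 difference came from experiments 2 and 3, since in experiment 1 its log2 difference was −0.01. Ccnb2, Cdc25b and Cdc25c fell by 0.65, 0.41 and 0.54 on the log2 scale.

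The spindle kinases and assembly proteins all fell, with a median of −0.79. Nusap1, a microtubule bundler of the spindle, fell most, from 88.9, 99.7 and 87.5 CPM in control to 59.3, 37.1 and 40.6 with LPS, and its log2 fold change was −1.01 ± 0.16 (adjusted p = 5.48e-04, edgeR). Tpx2, which activates Aurora A on the spindle, fell least, from 227, 249.96 and 252 to 207, 160.2 and 202 (−0.36 ± 0.13, adjusted p = 0.0483, edgeR). Plk1, the Polo kinase, and Aurka, the Aurora kinase of the spindle poles, lay between them at −0.90 and −0.71. The 5 mitotic kinesins had a median of −0.96. Kif11 was at 211, 197 and 217 in control and 110.2, 77.1 and 97.4 with LPS, and Kif23, a motor of the central spindle, was at 139, 138 and 139 and 90.2, 77.4 and 99.9. For both kinesins each LPS library lay well below each control library, with log2 fold changes of −1.13 and −0.64.

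Centromere and kinetochore genes fell in all 5 cases. Nuf2, a subunit of the Ndc80 complex that binds microtubules, was at 99.5, 96.8 and 118.05 CPM in control and 56.1, 44.1 and 58.2 with LPS (−0.99 ± 0.15, adjusted p = 3.54e-04, edgeR). Cenpe, the kinesin of the kinetochore, changed least in this role, from 206, 194 and 259 to 181, 154 and 183 (−0.35 ± 0.14, adjusted p = 0.0577, edgeR). The 4 spindle checkpoint genes fell with a median of −0.84. Ttk, the kinase also called Mps1, was at 51.5, 50.002 and 53.5 in control and 28.9, 20.9 and 25.9 with LPS, and Bub1, a second checkpoint kinase, at 169.9, 163 and 184 and 127, 94.0 and 111.3. Neither gene overlapped between the groups, and their log2 fold changes were −1.03 and −0.64. All 4 genes of the chromosomal passenger complex fell as well. Aurkb, its kinase, changed by nearly the same amount in each experiment. It was at 83.1, 77.1 and 80.7 in control and 36.9, 34.3 and 35.3 with LPS, and its log2 differences were −1.17, −1.17 and −1.19 in the 3 experiments. Incenp, the scaffold of the complex, was at 139.7, 130.2 and 166 and 91.2, 89.8 and 107.5 (−0.60 ± 0.13, adjusted p = 0.00397, edgeR).

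Of the 3 genes of anaphase entry, Cdc20 and Ube2c were called lower and Pttg1 was not. Cdc20 fell, from 105.03, 128.97 and 106.8 CPM in control to 70.9, 65.5 and 80.2 with LPS (−0.65 ± 0.11, adjusted p = 0.00104, edgeR), and the groups did not overlap. Ube2c, the ubiquitin-conjugating enzyme of the anaphase-promoting complex, overlapped between the groups, with a log2 difference of −0.26 ± 0.16 (edgeR's adjusted p = 0.211). It was lower in each experiment, by −0.17, −0.29 and −0.33, and with the experiment as a block its adjusted p was 0.0209 in that test. Pttg1, which encodes securin, the inhibitor of separase, was the only member not lower in total mRNA with TMM scaling. Its levels were 40.5, 56.3 and 43.9 in control and 52.3, 48.8 and 43.5 with LPS, within the same range, and its log2 fold change was 0.04 ± 0.15 (adjusted p = 0.854, edgeR). Scaled by library totals instead of TMM, Pttg1 was at −0.33 and all 40 members were lower. With that scaling the median of all genes moved to −0.38 and that of the members to −1.18. The share of all genes called lower by it is not given here. The cytokinesis genes fell in all 4 cases. Anln, the anillin scaffold of the contractile ring, was at 237, 218 and 262 in control and 101.02, 82.4 and 120.4 with LPS, and Ect2 at 95.2, 104 and 98.7 and 60.8, 50.03 and 56.9, with log2 fold changes of −1.24 and −0.83.

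Among the genes of chromosome structure and transcription, Mki67, whose product coats mitotic chromosomes, was at 1214, 1091 and 1670.5 CPM in control and at 693, 507 and 829 with LPS. Both groups spread widely and experiment 3 was the highest of each, so that the SE of the fit without a block was large (−0.97 ± 0.24, adjusted p = 0.00670, edgeR). Within the experiments the Mki67 differences were −0.81, −1.11 and −1.01. With the experiment as a block the adjusted p was 3.07e-05 in edgeR's test. Top2a, which untangles sister DNA, fell from 702, 676 and 722 to 515, 311 and 389 (−0.79 ± 0.16, adjusted p = 0.00288, edgeR). Foxm1, the transcription factor of the late cell cycle, fell from 112.7, 114 and 137 to 33.6, 49.8 and 63.1 (−1.31 ± 0.20, adjusted p = 3.97e-04, edgeR), close to that of Ccna2. An exon of Foxm1 overlaps exons of Tex52 and Gm44596 on the same strand, and its reads cannot be kept fully apart from theirs.

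In mRNA of the heavy polysomes, LPS lowered 35 of the 40 genes and raised none, at a background of 28.7% lower and 26.4% higher. The median log2 fold change was −0.79, against −0.03 over all genes. All 35 were also among the 39 that fell in total mRNA, the libraries of both RNA types coming from the same lysates. The 4 that fell in total mRNA only at this threshold were Ccnb1, Cdk1, Cenpe and Tpx2, and a difference between the RNA types was not called for any of them. With the experiment as a block, Cdk1, Cenpe and Tpx2 were lower in the polysomes too, at adjusted p-values of 0.137, 0.0714 and 0.164 in edgeR's test, which made 38 lower and 1, Pttg1, higher, beside 33.0% and 29.8% of all genes. Ccnb1 was at 143, 178 and 156 CPM in control polysomes and at 169.9, 101.2 and 145 with LPS, so that the groups overlapped. Cdk1 was at 178, 173 and 179.9 and 165, 121 and 161, which did not overlap (−0.25 ± 0.17, adjusted p = 0.311, edgeR). In this RNA type Foxm1 fell most, from 213, 190.4 and 193 to 59.0, 83.9 and 76.7 (−1.44 ± 0.17, adjusted p = 1.26e-04, edgeR), followed by Aurkb at −1.33 and Anln at −1.23. Pttg1 stood at 60.8, 87.02 and 71.8 in control and 98.6, 84.9 and 77.4 with LPS (0.25 ± 0.17, adjusted p = 0.287 and 0.224 with the block, edgeR), with overlapping groups. The members' median was −0.64, −1.04 and −0.66 in experiments 1, 2 and 3. At an FDR of 0.05, 25 of the 40 were lower and none higher, beside 16.6% and 15.9% of all genes.

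**Figure D2:**
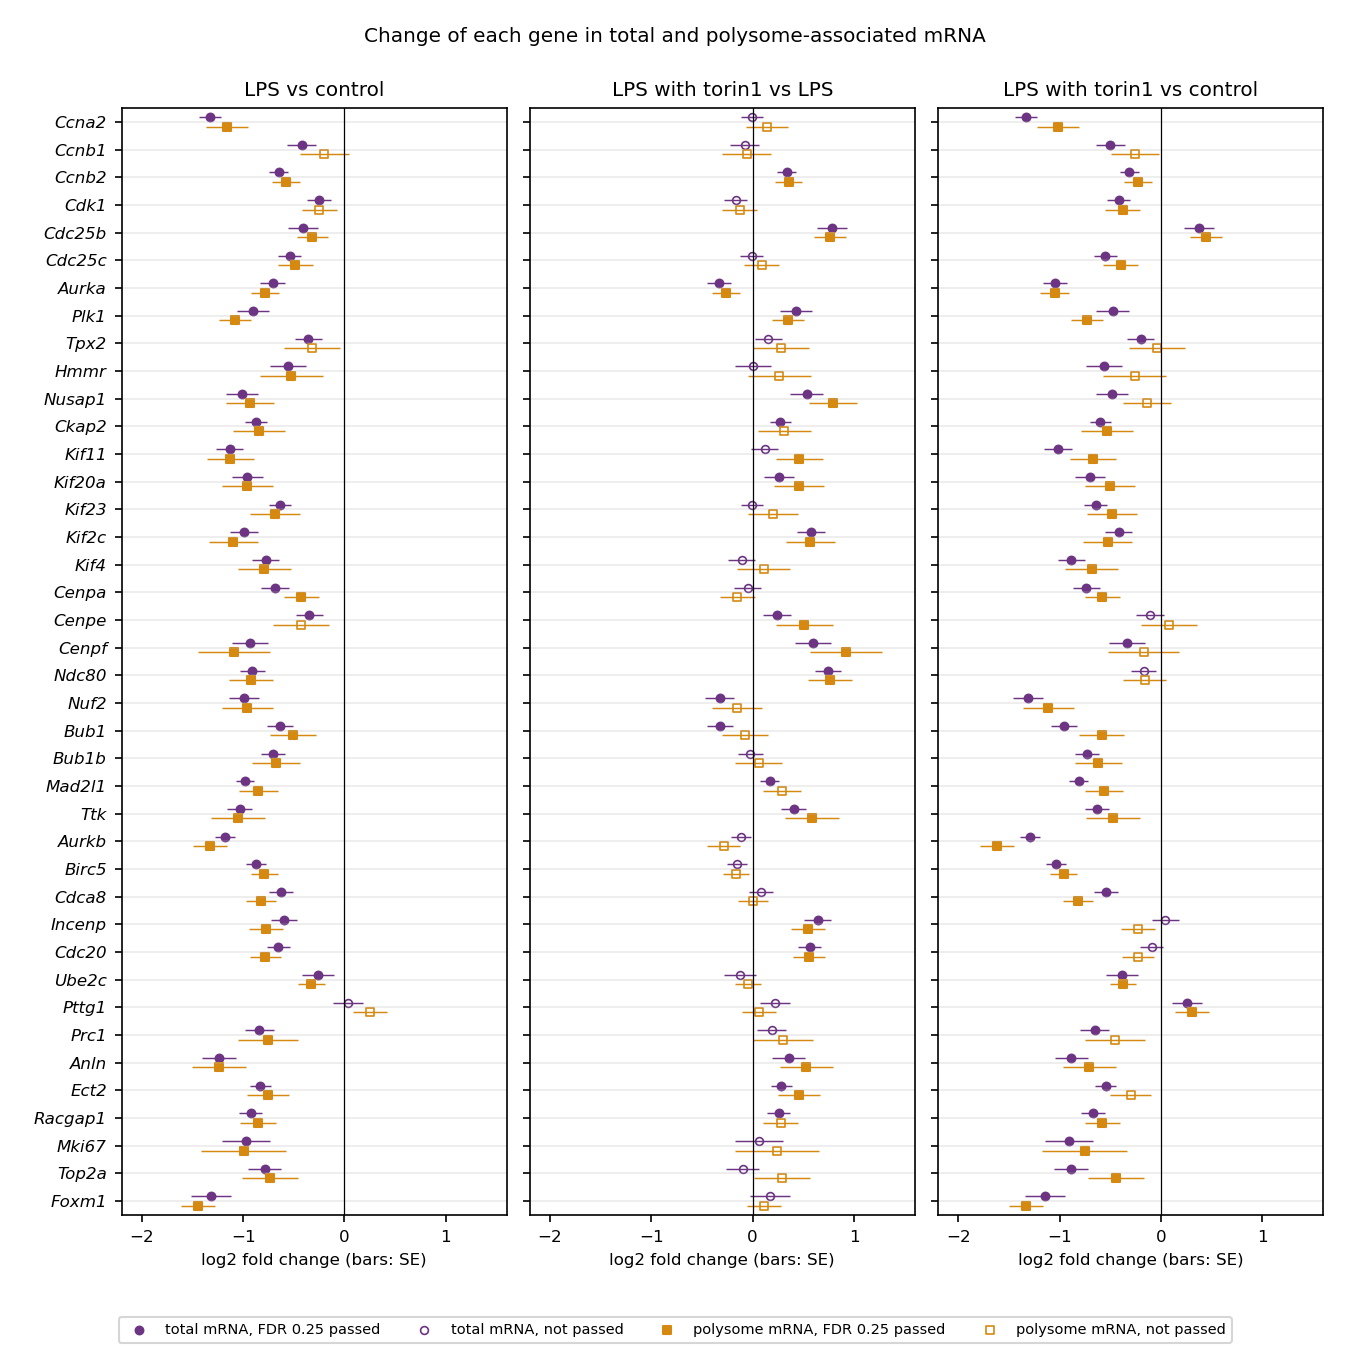
Log2 fold change of each of the 40 genes (rows) for LPS vs control, LPS with torin1 vs LPS, and LPS with torin1 vs control, in total mRNA (purple circles) and polysome-associated mRNA (orange squares), with bars of 1 SE from edgeR. Filled symbols passed an FDR of 0.25, as 39 circles and 35 squares did in the left panel, all of them left of 0, whereas the middle panel holds points on both sides of 0.

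The next question was what mTOR inhibition changed in LPS-treated cells. With torin1 added, 17 of the 40 genes were higher than with LPS alone in total mRNA and 3 were lower, a median of 0.16 on the log2 scale against 0.00 over all genes, of which 27.3% were higher and 26.4% lower. With the experiment as a block in the fit, 20 were higher and 7 lower, beside 32.6% and 31.4% of all genes. At an FDR of 0.05, 9 were higher and none lower, beside 15.6% and 13.5% of all genes. In CPM, all 3 torin1 libraries lay above all 3 LPS libraries for 14 members, an order seen in 22.2% of all genes. In polysome-associated mRNA 15 members were higher and 1, Aurka, was lower, with a median of 0.28 and a background of 20.3% higher and 18.2% lower. Of these 15, 14 were also higher in total mRNA, which was 93.3% of the one list and 82.4% of the other. Without experiment 1, 2 members were called higher in the polysomes, without experiment 2, 20 were, and without experiment 3, 3 were. The shares of all genes called higher in these 3 fits were 9.27%, 22.7% and 6.31%, and the medians of the members were 0.21, 0.30 and 0.31. Each of these fits has 2 libraries per group in place of 3. At an FDR of 0.05, 4 were higher and none lower in all 3 experiments, beside 8.10% and 5.75% of all genes. Without experiments 1, 2 and 3 in turn, 14, 13 and 12 members were higher and 2, 4 and 2 lower in total mRNA. Those fits called 5183, 5385 and 3959 of all 11243 genes, counting both directions.

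The genes that torin1 raised came from several roles. Cdc25b, the phosphatase that starts Cdk1 activation at the centrosomes, rose most in total mRNA, from 36.1, 44.7 and 46.5 CPM with LPS to 64.9, 81.3 and 73.6 with LPS and torin1 (0.79 ± 0.15, adjusted p = 0.00371, edgeR). Its exons overlap Spef1 on the other strand, and the strand setting of the counting is not stated. Ndc80, the partner of Nuf2, rose by 0.74 ± 0.12, from 32.7, 25.5 and 29.5 to 43.9, 47.7 and 55.2. Nuf2 itself went the other way, from 56.1, 44.1 and 58.2 to 40.3, 36.6 and 49.4 (−0.33 ± 0.15, adjusted p = 0.121, edgeR), so that 2 subunits of one complex differed in sign. The groups of Nuf2 overlapped, and in polysomes Nuf2 did not pass the test (−0.15 ± 0.25, adjusted p = 0.724, edgeR). Incenp rose from 91.2, 89.8 and 107.5 to 155, 130.5 and 165 (0.64 ± 0.13, adjusted p = 0.00579, edgeR), while its partners in the passenger complex, Aurkb, Birc5 and Cdca8, had log2 differences of −0.12, −0.16 and 0.08 that did not pass the test. Cdc20 rose from 70.9, 65.5 and 80.2 to 110.7, 101.3 and 108 (0.56 ± 0.11, adjusted p = 0.00568, edgeR), and none of these LPS libraries reached the lowest torin1 library. Cenpf, Kif2c, Nusap1, Plk1 and Ttk also rose, by 0.60, 0.57, 0.53, 0.43 and 0.40.

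The 3 genes below LPS in total mRNA were Aurka, Nuf2 and Bub1. Aurka was at 80.5, 67.3 and 89.5 CPM with LPS and 70.1, 60.3 and 57.8 with torin1 (−0.33 ± 0.12, adjusted p = 0.0604, edgeR), and Bub1 at 127, 94.0 and 111.3 and 90.0, 79.6 and 96.6 (−0.32 ± 0.13, adjusted p = 0.0833, edgeR). The ranges of both genes overlapped between the groups. With the block, Cdk1, Aurkb, Birc5 and Ube2c were called lower as well, at adjusted p-values of 0.231, 0.236, 0.166 and 0.231 in edgeR's test. The 3 genes added among those higher were Pttg1, Prc1 and Foxm1, at 0.157, 0.140 and 0.230 in the same test. Of the genes most used to mark dividing cells, Ccna2, Top2a and Mki67 did not pass in either RNA type, with or without the block. Ccna2 was at 123.5, 94.2 and 109 with LPS and 112.8, 107.3 and 105.7 with torin1, Top2a at 515, 311 and 389 and 409, 339 and 386, and Mki67 at 693, 507 and 829 and 635, 568 and 918. Their log2 differences were −0.01 ± 0.11, −0.10 ± 0.16 and 0.06 ± 0.23, and their groups overlapped. Foxm1 was at 33.6, 49.8 and 63.1 and 50.1, 53.8 and 61.1, with most of its difference of 0.17 in experiment 1.

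In the polysomes the largest rise was that of Cenpf, a large protein of the outer kinetochore, from 27.7, 25.7 and 47.3 CPM to 56.7, 36.9 and 97.4 (0.92 ± 0.35, adjusted p = 0.110, edgeR). The groups overlapped, since experiment 2 with torin1 lay below experiment 3 with LPS. Nusap1 rose from 23.5, 16.04 and 24.3 to 35.8, 28.5 and 46.4 (0.79 ± 0.24, adjusted p = 0.0482, edgeR), Cdc20 from 70.0, 62.3 and 78.4 to 112.4, 89.04 and 108 and Incenp from 87.6, 77.2 and 100.02 to 131.2, 111.05 and 144. None of these last 3 genes overlapped between the groups. Kif11 was called in the polysomes only, at 48.2, 35.03 and 57.6 and 69.7, 45.0 and 78.8 (0.46 ± 0.23, adjusted p = 0.212, edgeR), against 0.12 ± 0.13 in total mRNA.

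**Figure D3:**
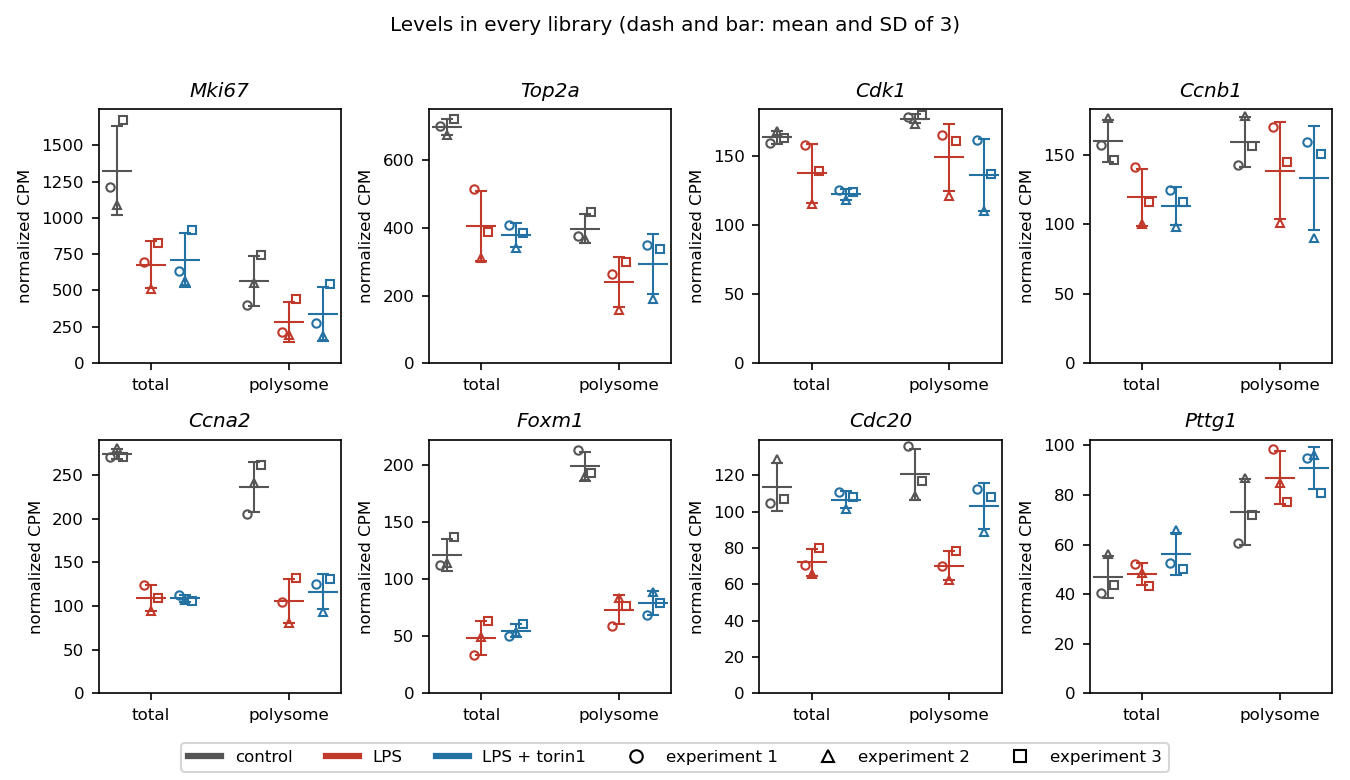
Normalized CPM of 8 members in every library of total and polysome-associated mRNA, by treatment (colour) and experiment (symbol), on linear axes from 0, with the mean (dash) and SD (bar) of the 3 experiments. In total mRNA Ccna2 and Foxm1 lie below control with LPS and with LPS and torin1, Cdc20 lies above its LPS libraries with torin1, and Pttg1 overlaps between control and LPS.

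Set against control, the cells with LPS and torin1 still had lower levels of 34 of the 40 genes in total mRNA and of 27 in the polysomes, with medians of −0.61 and −0.49, where 33.6% and 29.7% of all genes were lower and 33.1% and 28.5% higher. At an FDR of 0.05, 31 were lower and none higher in total mRNA, beside 23.8% and 23.7% of all genes, and 13 were lower and 1 higher in the polysomes, beside 16.8% and 18.3%. This comparison shares its control libraries with the first and its torin1 libraries with the second. Cdc25b and Pttg1 were higher in both RNA types. Cdc25b was at 48.2, 66.9 and 54.3 CPM in control and 64.9, 81.3 and 73.6 with both agents (0.37 ± 0.15, adjusted p = 0.0565, edgeR), and Pttg1 at 40.5, 56.3 and 43.9 and 52.6, 65.8 and 50.1 (0.26 ± 0.15, adjusted p = 0.177, edgeR). Both rises were lost when libraries were scaled by their totals, by which the median of all genes was −0.30. In total mRNA Cenpe, Ndc80, Incenp and Cdc20 did not pass the test against control, at −0.11, −0.17, 0.04 and −0.09, but Ndc80 was lower with the block (adjusted p = 0.233, edgeR). In polysomes the block added Incenp, Cdc20, Prc1 and Ect2 to those lower. Ccna2, Nuf2, Aurkb and Foxm1 were the lowest, at −1.33, −1.32, −1.29 and −1.14. In total mRNA no member was higher without experiment 3, and 1 was without experiment 1. Those fits called 6224 and 7008 of all genes, counting both directions. In polysomes the experiments differed, with member medians of −0.24, −0.98 and −0.40 in experiments 1, 2 and 3. Tpx2, for example, was at 137, 162 and 179 in control and 168, 95.9 and 202 with both agents, lower in experiment 2 alone.

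Translation efficiency, the change in polysomes beyond that in total mRNA, was tested as an interaction over all 18 libraries. This main fit did not pair the 2 libraries of each lysate. No member passed an FDR of 0.25 with a fold of 1.2 in any of the 3 comparisons, and no member had an unadjusted p under 0.05 in this edgeR fit. With the lysate as a block 2 members, Cdca8 and Incenp, had an unadjusted p under 0.05 in LPS with torin1 vs control, beside 820 of all 11243 genes. By analysis of partial variance 2 members did in LPS vs control, beside 714 of all genes. In LPS with torin1 vs control 5 did by that method, beside 1148 of all genes. In the fit without the block, 0 of all genes passed in each comparison (0%). There 44, 110 and 145 genes (0.391%, 0.978% and 1.29%) had an unadjusted p under 0.05 for LPS vs control, LPS with torin1 vs LPS and LPS with torin1 vs control. These shares lie below the 0.05 that a calibrated test would give without any change. That fit was thus conservative, and 0 calls in it do not show that translation was unchanged. DESeq2 called 1, 13 and 1 genes, the edgeR test with the lysate as a block 0, 25 and 3, and an analysis of partial variance after the study's method 10, 21 and 13, and none of them was a member. The medians of the members were 0.02, 0.07 and 0.14. For LPS vs control the lowest p-values belonged to Cenpa, the centromeric histone, at 0.26 ± 0.22, Cdca8, or borealin, at −0.20 ± 0.19, and Pttg1 at 0.21 ± 0.23 on the log2 scale. In LPS with torin1 vs LPS they belonged to Kif11 at 0.32 ± 0.29, Aurkb at −0.19 ± 0.18 and Top2a at 0.37 ± 0.35. For LPS with torin1 vs control they were those of 3 passenger complex genes, Aurkb at −0.34 ± 0.18, Cdca8 at −0.30 ± 0.19 and Incenp at −0.29 ± 0.22. These SEs, of 0.18 to 0.35, are those of the fit without the lysate as a block.

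Where the members differed most from one another was in how far their mRNA was found in the heavy polysomes at all. In control cells 19 members were lower in polysome-associated than in total mRNA and 8 were higher, at a background of 33.2% lower and 36.3% higher, and the median was −0.22 against 0.03 over all genes. These log2 differences compare scaled libraries within a gene and are not shares of its molecules. Cenpe was lowest, at 206, 194 and 259 CPM in total mRNA and 46.2, 64.0 and 67.8 in polysomes (−1.89 ± 0.24, adjusted p = 6.54e-05, edgeR). It was followed by Hmmr, a spindle protein of the centrosome, at −1.65, Cenpf at −1.56, Mki67 at −1.22 and Ndc80 at −1.21. Mki67 was at 1214, 1091 and 1670.5 in total mRNA and 403, 549 and 746 in polysomes, with no overlap. At the other end Foxm1 was at 112.7, 114 and 137 and 213, 190.4 and 193 (0.71 ± 0.19, adjusted p = 0.00524, edgeR), again with no overlap. Pttg1, Cenpa, Plk1 and Ube2c were also higher in polysomes, at 0.64, 0.58, 0.58 and 0.45. Within roles the directions differed, since Cenpa was higher while the other 4 kinetochore genes were lower, and Plk1 and Aurka were higher while the other 4 spindle genes were lower. With LPS 9 members were higher and 19 lower, beside 34.1% and 31.1% of all genes, and with LPS and torin1 7 and 19, beside 27.8% and 27.8%. Cenpe remained the lowest, at −1.96 and −1.72.

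Members with long coding sequences were lower in the polysomes. Across the 40 genes the Spearman correlation of the control difference with coding length was −0.643, and across the 10755 genes of the table with annotated transcripts it was −0.277. The correlation with GC content was 0.666 across the members and 0.671 across all genes. These are descriptions across genes, which share the libraries and are not independent, and length and GC content vary together with other features. Coding lengths of the members ran from 402 nucleotides for Cenpa to 9531 for Mki67, with a median of 1905, against a median of 1380 over all genes. With LPS and torin1 the correlations of the members were −0.624 for coding length and 0.472 for GC content, and those of all genes −0.302 and 0.498.

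**Figure D4:**
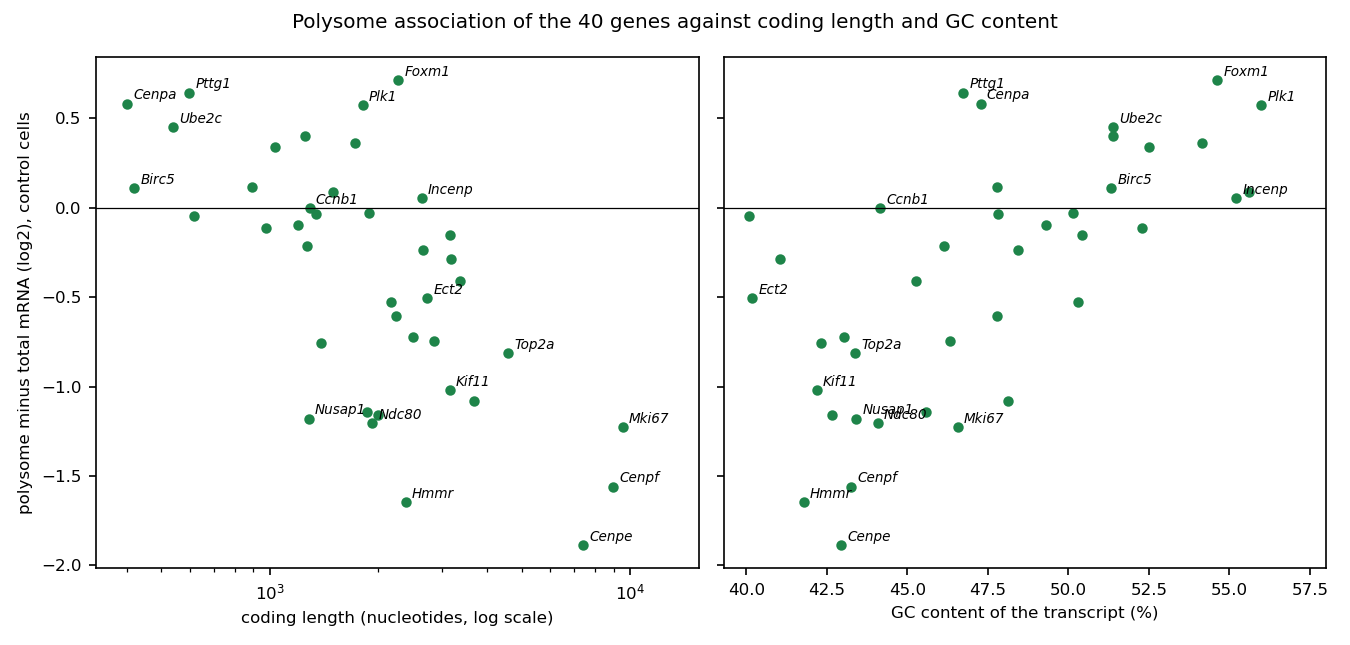
Log2 difference between polysome-associated and total mRNA in control cells for the 40 genes against coding length (left, log axis) and GC content of the transcript (right), 1 point per gene, selected genes named. Long genes such as Cenpe, Cenpf and Mki67 lie below 0 and short ones such as Cenpa, Pttg1 and Ube2c above it, with a Spearman correlation of −0.643 for length and 0.666 for GC content.

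Other lists of cell cycle genes, chosen with earlier results of these data known, give the setting of the 40. Of 65 further mitotic genes, LPS lowered 60 in total mRNA and raised 2, beside 34.3% and 32.2% of all genes, with a median of −0.89. The strongest falls were those of Fbxo5, or Emi1, an inhibitor of the anaphase-promoting complex, at −2.27 ± 0.13, Psrc1 at −1.90 and Fam64a at −1.70, and the 2 that rose were the kinetochore gene Zwint at 0.66 and Ckap2l at 0.31. Torin1 raised 24 and lowered 6 of the 65, a median of 0.11, beside 27.3% and 26.4% of all genes. Fam64a, Psrc1 and Mastl, the Greatwall kinase, rose most, by 0.94, 0.78 and 0.77, while Zwint, Cks2 and Pbk fell, with log2 changes of −0.53, −0.37 and −0.25. In polysomes LPS lowered 55 and raised 1 of them, beside 28.7% and 26.4% of all genes, and torin1 raised 19 and lowered 5, beside 20.3% and 18.2%. The 16 genes of the anaphase-promoting complex and its partners, which are used outside mitosis too, had a median of −0.08 for LPS in total mRNA, with 2 higher and 5 lower beside 32.2% and 34.3% of all genes. Anapc11, Cdc23 and Anapc5 were the lowest of these, at −0.40, −0.36 and −0.31, and Ube2s and Cdc26 were higher, at 0.27 and 0.22. Torin1 raised 3 of the 16 and lowered 5, beside 27.3% and 26.4% of all genes. The 3 were Anapc2, Anapc11 and Anapc7 at 0.91, 0.71 and 0.28, and among the 5 were Ube2s, Anapc1 and Cdc16 at −0.39, −0.29 and −0.26. These small values depend on the scaling, since by library totals none of the 16 was higher and 14 were lower with LPS, and Ckap2l of the 65 stood at −0.06. By that scaling the median of all genes was −0.38, and the share of all genes called is not given here.

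**Figure D5:**
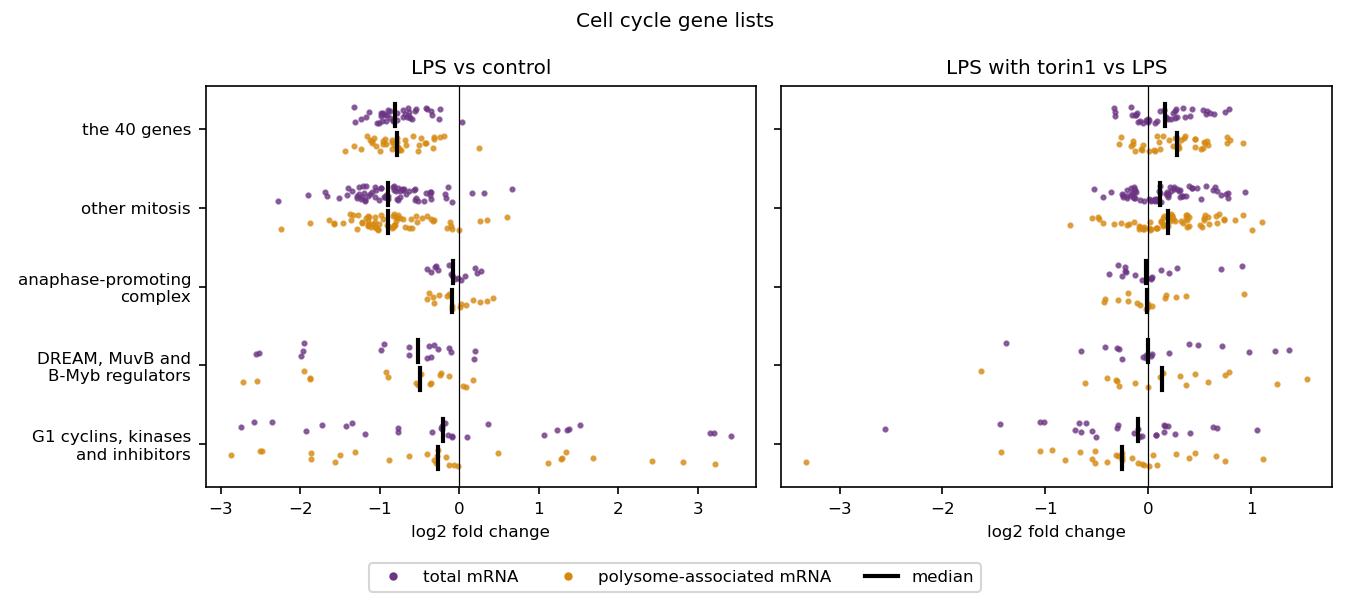
Log2 fold changes of the genes in 5 cell cycle lists (rows, 1 point per gene, spread vertically for display) for LPS vs control (left) and LPS with torin1 vs LPS (right), in total (purple) and polysome-associated (orange) mRNA, with the median as a black bar. With TMM scaling the medians for LPS in total mRNA are −0.81 for the 40 genes, −0.89 for 65 other mitotic genes, −0.08 for the anaphase-promoting complex, −0.52 for regulators of their transcription and −0.20 for G1 genes, which reach from −2.74 to 3.42.

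Of 18 regulators that act on CHR and CCAAT elements or belong to the E2F family, LPS lowered 14 and raised 2 in total mRNA, beside 34.3% and 32.2% of all genes, with a median of −0.52. Mybl2, which encodes B-Myb, was at 76.8, 66.2 and 92.1 CPM in control, 12.01, 22.1 and 26.6 with LPS and 7.21, 7.63 and 8.43 with LPS and torin1. Its level thus fell with LPS (−1.95 ± 0.24, adjusted p = 1.19e-04, edgeR) and fell further with torin1 (−1.39 ± 0.25, adjusted p = 0.00319, edgeR), where 17 of the 40 members rose. The repressive E2F genes E2f8 and E2f7 fell by 2.55 and 2.53 on the log2 scale and the E2F partner Tfdp2 by 2.00. Rbl2, which encodes the pocket protein p130 of the DREAM complex, had 31.8, 38.2 and 33.9 CPM in control, 7.43, 10.4 and 8.68 with LPS and 20.8, 22.1 and 25.5 with torin1 added, and its rise with torin1 was the largest of the list at 1.37 ± 0.15. Tfdp2 and E2f7 rose by 1.24 and 0.98, and Tfdp1 and Rbl1, or p107, fell by 0.65 and 0.42. E2f4 and Nfyc were the 2 that LPS raised, by 0.19 and 0.18, but by library totals they stood at −0.17 and −0.19 and all 18 were lower. By library totals the median of all genes was −0.38, and the share of them called lower is not given here. In all, torin1 raised 7 and lowered 6 of the 18, beside 27.3% and 26.4% of all genes.

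The last list held G1 cyclins, kinases and inhibitors. Of 32 listed genes 28 were in the table, all but Ccnd2, Cdkn1c, Cdkn2a and Cdkn2b, and LPS raised 9 of the 28 and lowered 13, beside 32.2% and 34.3% of all genes. Myc, a driver of cell growth, went from 2.86, 3.20 and 3.51 CPM in control to 23.4, 35.1 and 43.8 with LPS and stood at 23.4, 22.3 and 19.3 with torin1. Cdkn1a, which encodes the kinase inhibitor p21, was at 57.2, 76.1 and 83.5 in control, 170.0, 228 and 224 with LPS and 57.6, 106.1 and 65.0 with torin1. LPS raised Cdkn1a (1.52 ± 0.23, adjusted p = 4.50e-04, edgeR) and torin1 lowered it to the range of the controls or near it (−1.44 ± 0.23, adjusted p = 0.00178, edgeR). The stress genes Gadd45a and Gadd45b rose with LPS by 3.20 and 3.16. The G1/S genes E2f2, Ccne2 and Ccne1 fell most in this list, by 2.74, 2.58 and 2.36. Ccnd1, cyclin D1, was at 295, 310.4 and 289.9 in control, 128, 438 and 276 with LPS and 70.0, 228 and 118.3 with torin1, and the LPS libraries of the 3 experiments lay on both sides of the controls (−0.09 ± 0.44, adjusted p = 0.888, edgeR). Torin1 lowered it in each experiment (−1.01 ± 0.45, adjusted p = 0.115, edgeR). Gadd45g and Ccnd3 also fell with torin1, with log2 changes of −2.55 and −1.06, and Ccng2, Cdkn2d and Rb1 rose, by 1.06, 0.67 and 0.63.

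The members were also grouped by their promoters. The 23 genes with both a CHR motif and a CCAAT box all fell with LPS in total mRNA, beside 34.3% of all genes. Their median was −0.71, with values from −1.13 to −0.25. Among the 5 with neither motif, Nusap1, Nuf2, Mad2l1 and Birc5 fell and Pttg1 did not, and their median was −0.98. Kif2c, Ndc80 and Anln, with a CHR motif but no CCAAT box in the window, fell by 0.99, 0.91 and 1.24, and all 3 rose with torin1. The 2 with a CCAAT box alone, Ccnb1 and Cenpe, fell by 0.42 and 0.35. Of the 23 with both motifs 9 rose and 2 fell with torin1, beside 27.3% and 26.4% of all genes. Groups this small were not compared by a test. Reads of Ccnb1, Ccnb2 and Kif4 may be divided with named pseudogenes, and 10 of the 40 genes overlap a protein-coding gene on the other strand in an exon, among them Ccna2, Cdc20, Nusap1, Prc1 and Ube2c, so their levels are less certain should the counting have ignored strand.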

How the data were processed

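Total mRNA and mRNA of pooled heavy polysomes were taken from each of 9 lysates of RAW264.7 cells, made in 3 independent experiments. Per the submitters' processing notes and the methods, the authors made stranded libraries depleted of ribosomal RNA, sequenced them in pairs and ran nextflow RNAseq pipeline 1.3, with Hisat2 on build GRCm38 and featureCounts on Ensembl genes. The strand setting of the counting is not given in the sources used here. The authors deposited raw counts for 11243 protein-coding genes, without genes that had 0 counts in any of the 18 libraries, the lowest count being 1. Every member had 344 counts or more in each library, and counting error was not set against the spread between experiments.

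From these counts, edgeR 4.0.16 in R 4.3.3 fitted quasi-likelihood models with TMM scaling to the 9 libraries of each RNA type, with treatment as the factor. Translation efficiency and the difference between RNA types came from a model of all 18 libraries in 6 groups. P-values were adjusted by Benjamini-Hochberg over all genes, and calls used an FDR of 0.25, with a fold of 1.2 for translation efficiency. Alternatives were a replicate block, DESeq2 1.42.0 and its size factors, library totals, a minimum of 10 counts in every library, an FDR of 0.05, 1 model over all libraries, an analysis of partial variance with limma 3.58.1 in the manner of the study's anota2seq, and leaving out each experiment. The scripts were tested on simulated data. Same-numbered libraries of total mRNA deviated together (correlations of 0.149 to 0.412), and 9 of 9 correlated best with their own number, which the labels give as the experiment, so that the numbers pair these libraries.

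The members and the other lists were chosen with earlier results of these data known. Values in every library were given for Mki67, Top2a, Cdk1, Ccnb1, Foxm1 and the members with the highest and lowest LPS effect of each role, for translation efficiency the 3 members with the lowest p, and of other lists the 3 genes that rose and fell most. Values in every library were added for Cdc25b, Ndc80, Aurka and Cenpf, and for Rbl2, after they were seen. Promoters and their build are those of RefSeq, with 33 of 40 members matched. Coding length and GC content were taken from the annotation of GRCm38 for 10755 genes.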

Additional observations from a re-analysis of the deposited data

How the results depend on the processing

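The median of the members fell with LPS under every alternative run in both RNA types, 37 to 39 being lower in total mRNA when 1 experiment was left out. In those fits 6238 to 7062 of all genes were called, counting both directions. Scaled by library totals, the medians of the members were −1.18 for LPS vs control and −0.91 for LPS with torin1 vs control in total mRNA. For LPS vs control in polysomes the members' median was −1.14. The medians of all genes were −0.38, −0.30 and −0.38 in these 3 cases. No member was higher in LPS with torin1 vs control in either RNA type with this scaling. The counts for torin1 against LPS varied most. In total mRNA 7 members were lower with a replicate block, beside 31.4% of all genes, and 1 in one model over all libraries. At an FDR of 0.05, 9 were higher and 0 lower, beside 15.6% and 13.5% of all genes. In polysomes 2 were lower with the block or DESeq2 size factors, 3 in one model, and 0 by library totals or at an FDR of 0.05. At that FDR 4 were higher, beside 8.10% of all genes. Leaving out 1 experiment gave 2 to 20 higher and 0 lower, while 6.31% to 22.7% of all genes were called higher and the median of the members was 0.21 to 0.31. The shares of all genes in one model, with size factors, by library totals and, in polysomes, with the block are not given here for torin1 against LPS. Against control, an FDR of 0.05 left 0 members higher with LPS and torin1 in total mRNA, beside 23.7% of all genes. In polysomes it left 1 higher and 13 lower, beside 18.3% and 16.8%. Leaving out 1 experiment gave 0 to 2 higher in total mRNA and 1 to 2 in polysomes. In total mRNA 6224 to 7008 of all genes were called in those fits and in polysomes 4156 to 7627, counting both directions. For LPS vs control in polysomes 1 member was higher with the block, with size factors and in one model, and 0 to 1 when 1 experiment was left out. With the block 29.8% of all genes were higher, and the shares with size factors and in one model are not given here. The fits without 1 experiment called 3901 to 7251 of all genes, counting both directions. The causes were not tested.

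The replicate block paired the libraries of total mRNA. In polysomes the correlations of same-numbered libraries reached down to −0.0886, 7 of 9 correlated best with their own number, and the block gave 17 members higher and 2 lower for torin1 against LPS. Among genes named, the sign turned by library totals for Pttg1 in LPS vs control (−0.33 in total mRNA, −0.11 in polysomes) and in LPS with torin1 vs control (−0.039), for Incenp (−0.25) and, in polysomes, Cenpe (−0.21) in the latter comparison, and for Ccna2 (0.066), Kif23 (0.061) and, in polysomes, Ccnb1 (0.010) in torin1 against LPS. When 1 experiment was left out, the values that turned in sign ranged in total mRNA from −0.11 to 0.18 for Pttg1 in LPS vs control, from −0.16 to 0.046 for Cdc20 in LPS with torin1 vs control, and, in torin1 against LPS, from −0.19 to 0.050 for Top2a, from −0.092 to 0.063 for Ccna2 and from −0.051 to 0.025 for Kif23. In polysomes they ranged from −0.44 to 0.074 for Ccnb1 in LPS vs control and, in LPS with torin1 vs control, from −0.48 to 0.049 for Ccnb1, from −0.11 to 0.34 for Cenpe, from −0.19 to 0.23 for Tpx2 and from −0.31 to 0.17 for Nusap1. By analysis of partial variance the translation efficiency of Cenpa with LPS was −0.57. The causes were not tested. No member was called for translation efficiency under any alternative, and without experiment 2 the same test called 430 of all genes in LPS with torin1 vs control.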
